A study of Homo sapiens with 11 samples.

Results

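The genes for 84 proteins of the cytosolic ribosome were followed through 3 cultures of cells made from H9, a human embryonic stem cell line. Members were taken by symbol: RPL or RPS with a number and an optional suffix A, X, L or L plus a number, and RPLP0, RPLP1, RPLP2 and RPSA, without Y-linked copies and the RPS6K kinases. The rule gave 84 of the 36601 genes in the count tables, 32 of the small and 52 of the large subunit. Some other ribosomal protein genes, such as RPL36AL and FAU, fall outside it. All groups were H9 cells collected on day 42.5 and profiled by droplet single-cell RNA-seq with 3′ chemistry: a flat (2D) culture with 3 libraries, chambered cardioids (3-dimensional heart organoids) given PD173074 with 3 libraries, and chambered cardioids without PD173074 with 5 libraries. PD173074 is a small-molecule inhibitor of FGF receptor kinases. The labels do not say how long it was given, or how many cultures or organoids were pooled for each group. Which library used chemistry v2 or v3 is not given either. A difference in chemistry between groups could therefore not be told apart from a difference between cultures.

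A ribosome reads mRNA on its small subunit and joins amino acids on its large subunit, and each subunit is a core of ribosomal RNA covered by proteins made from these genes. The proteins are needed in about equal numbers. Most of their mRNAs begin with a run of pyrimidines, the 5′ terminal oligopyrimidine (TOP) tract, through which mTOR and LARP1 set how strongly they are translated. In a dividing or growing cell the mRNAs of the members are among the most abundant. Heart muscle cells put much of their mRNA into contractile and mitochondrial proteins. A few members are paralogs of another member, such as RPL3L, known from adult heart and skeletal muscle, RPL39L, known from the male germline and stem cells, and RPS27L, a target of p53.

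The annotated transcription starts show the feature most members share, and the starts below are printed for members that the results turn on and for listed paralogs, with and without that feature. RefSeq promoters on GRCh38.p14 were listed for 67 of the 84 members; RPL23A, RPS2, RPL23, RPL7, RPL37, RPL3L, RPL8, RPL30, RPS20, RPL5, RPL39L and RPS15A were among those not listed. Each line gives 30 bases before and 20 bases from the start, 5′ to 3′ on the gene's strand. Capitals mark the start base and, where the start is a C followed by at least 4 bases that are each C or T, the whole run of C and T.
RPS6, chr9:19380217-19380266, minus strand: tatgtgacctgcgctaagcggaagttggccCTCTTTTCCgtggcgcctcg
RPLP0, chr12:120201092-120201141, minus strand: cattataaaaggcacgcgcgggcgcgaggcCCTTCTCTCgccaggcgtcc
RPL13A, chr19:49487578-49487627, plus strand: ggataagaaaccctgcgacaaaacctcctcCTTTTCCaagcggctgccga
RPL39, chrX:119791611-119791660, minus strand: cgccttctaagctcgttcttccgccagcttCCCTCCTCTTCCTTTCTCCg
RPS12, chr6:132814539-132814588, plus strand: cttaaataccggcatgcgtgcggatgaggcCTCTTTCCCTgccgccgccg
RPL12, chr9:127451387-127451436, minus strand: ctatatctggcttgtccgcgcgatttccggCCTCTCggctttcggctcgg
RPL22, chr1:6199576-6199625, minus strand: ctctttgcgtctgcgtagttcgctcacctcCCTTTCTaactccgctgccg
RPL22L1, chr3:170870176-170870225, minus strand: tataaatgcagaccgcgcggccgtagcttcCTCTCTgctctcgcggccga
RPS27, chr1:153990732-153990781, plus strand: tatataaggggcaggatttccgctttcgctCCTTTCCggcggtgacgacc
RPS27L, chr15:63157458-63157507, minus strand: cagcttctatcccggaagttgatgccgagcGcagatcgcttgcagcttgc
RPL26, chr17:8383174-8383223, minus strand: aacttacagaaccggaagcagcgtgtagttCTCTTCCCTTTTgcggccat
RPL26L1, chr5:172958699-172958748, plus strand: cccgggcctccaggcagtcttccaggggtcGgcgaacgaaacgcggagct
RPL7L1, chr6:42879586-42879635, plus strand: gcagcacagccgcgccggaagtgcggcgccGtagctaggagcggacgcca
RPS4X, chrX:72277229-72277278, minus strand: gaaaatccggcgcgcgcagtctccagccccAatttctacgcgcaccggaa
A start of this TOP form, read on the gene's strand only, was present at 1 or more listed starts of 47 of the 67 members (70.1%) and of 1404 of the 27305 genes in the same table (5.14%). At their annotated starts RPS27L, RPL26L1 and RPL7L1 have another base, and so does RPS4X, the member with the most counts here. The form was read at the annotated base alone, so a tract that begins a few bases away was not counted. RPL22L1 shares the TOP form with RPL22.

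Each group is 1 sample in what follows. Cell barcodes overlapped by 99.3 to 99.9% between libraries of a group, and the log10 UMI totals of the shared barcodes correlated at 0.998 or more. Between groups the overlap was 0.737% at most. The libraries of a group are therefore runs of the same droplets, and no test between groups was possible. Every interval given is an exact 95% interval for counting error alone. Where runs are said not to overlap or to lie apart, this shows the repeat of the counting and not the spread between cultures. How many of all genes have runs that do not overlap was not counted. The filters left 8183 cells in the 2D culture, 4597 in cardioids with PD173074 and 3534 in cardioids without it. A run held between 12226997 and 45972404 UMIs in these cells (unique molecular identifiers, 1 per captured mRNA molecule), with the fewest in run 3 without PD173074.

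Over all cells the members took 11.7% of UMIs in the 2D culture, 13.7% in cardioids with PD173074 and 9.73% in cardioids without it. Single runs gave 11.6, 11.7 and 11.7% in the 2D culture, and 13.7% in all 3 runs with PD173074. Without PD173074 they gave 9.67, 9.64, 10.3, 9.64 and 9.64%, so run 3 stood above the other 4, and the runs of the 3 groups did not overlap. Cells were then divided into classes by clustering without any ribosomal protein or mitochondrially encoded gene. Clusters with high levels of the cardiomyocyte list (TNNT2, MYH6, MYH7, TTN, ACTN2 and others) are called cardiomyocyte-like. Clusters 1 and 9 also reached that level, with a mean log2(CPM + 1) of 8.50 and 8.29 where the limit was 8. They were set aside because their 10 leading genes held more markers of another class than of the cardiomyocyte list. These were KDR in cluster 1 and MYH11 in cluster 9. The sinus node markers were not counted, and SHOX2, 1 of them, was also among the 10 leading genes of cluster 9. The set-aside cells made up 21.8% of cells in the 2D culture, 13.1% with PD173074 and 9.62% without it.

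In cardiomyocyte-like cells the members took 11.2% of UMIs in the 2D culture (5456 cells), 11.3% with PD173074 (2886 cells) and 8.94% without PD173074 (2819 cells). The ratio with against without PD173074 was 1.26 (log2 0.33), and that without PD173074 against the 2D culture was 0.797 (log2 -0.33). Runs of the 2D culture gave 11.2% each, those with PD173074 11.3% each, and those without gave 8.89, 8.86, 9.49, 8.86 and 8.86%. Pooled over clusters, the 2 groups near 11% could not be ranked. The log2 ratio with PD173074 against 2D culture was 0.01, and -0.01 when mitochondrially encoded UMIs were left out of the total. With the set-aside clusters included, an alternative chosen after seeing the data, the shares were 10.6% in the 2D culture, 11.2% with PD173074 and 8.91% without. Small subunit members supplied 42.4, 42.3 and 41.7% of the members' UMIs in the 3 groups. Mitochondrially encoded genes took 5.13, 4.21 and 3.51% of UMIs in these cells and the nuclear RNA MALAT1 took 2.17, 1.66 and 2.18%; their part in the differences was not tested. Different clusters made up this class in the 3 groups: clusters 0 (2480 cells) and 2 (1821 cells) held most of it in the 2D culture, clusters 3 (1372), 8 (643) and 5 (627) with PD173074, and cluster 4 (1363) without.

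**Figure D1:**
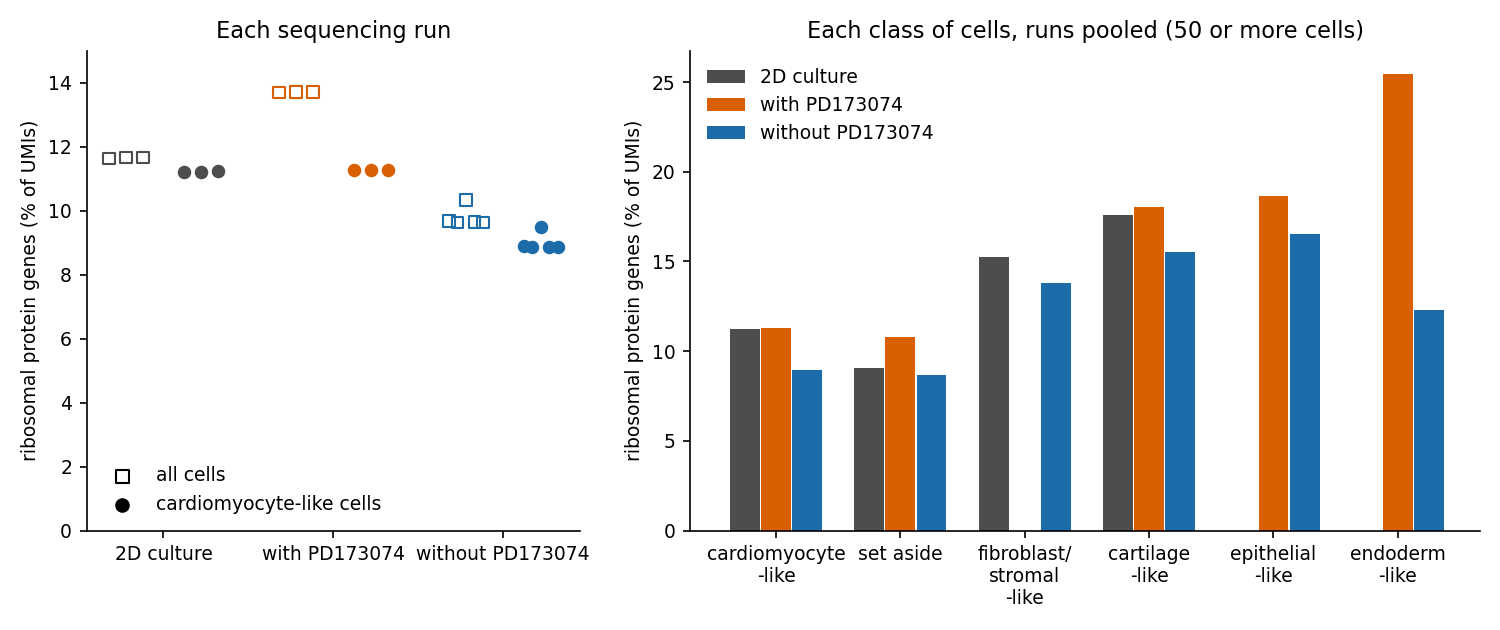
Share of UMIs from the 84 ribosomal protein genes. Left, each run (x, group; y, % of UMIs), with squares for all cells and filled circles for cardiomyocyte-like cells; right, bars for each class of cells with the runs pooled and no error bar. Run 3 without PD173074 lies above the other runs of its group, and the endoderm-like bars lie at 25.5% and 12.3%.

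Cells of the cardioids with PD173074 were spread more widely than those of the other groups. The median cardiomyocyte-like cell gave 11.6% of its UMIs to the members in the 2D culture, 11.3% with PD173074 and 8.85% without. Between the 5th and the 95th percentile, cells with PD173074 ranged from 1.14 to 19.0%, those without from 3.27 to 14.3% and those of the 2D culture from 5.11 to 16.0%. A share under 3% was found in 10.4% of cells with PD173074 (299 cells), in 4.75% of those without (134 cells) and in 2.46% of the 2D culture (134 cells). These low-share cells had fewer UMIs, with a median of 2628 with PD173074, where cells with a share of 12 to 15% had 6751. Their median mitochondrial share was 6.68% with PD173074, 4.79% without and 9.47% in the 2D culture, against 3.74, 3.89 and 4.90% in cells with a share of 12 to 15%.

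**Figure D2:**
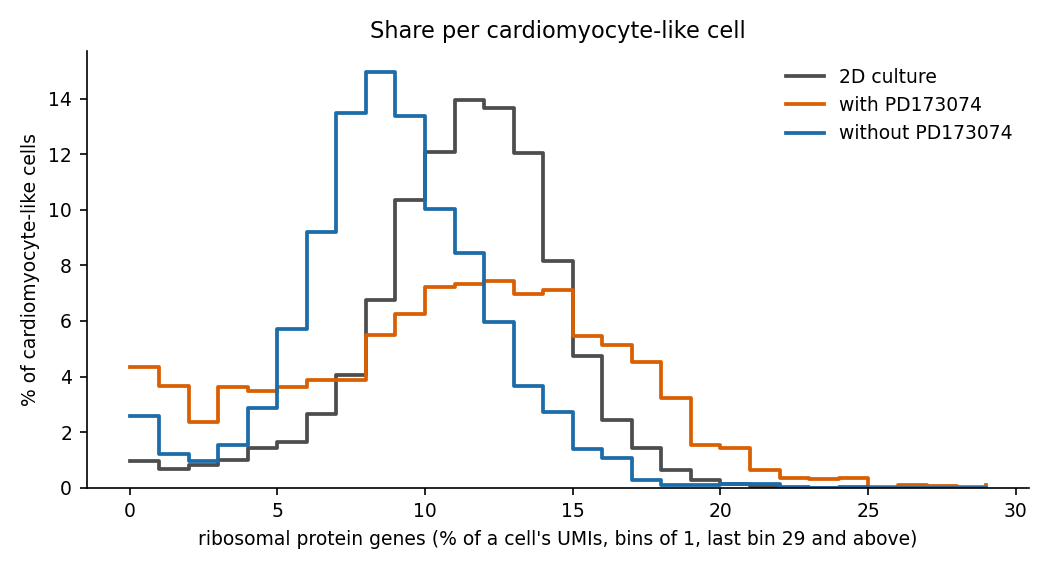
Distribution of the members' share over cardiomyocyte-like cells. The x axis is the percentage of a cell's UMIs that came from the 84 genes, in bins of 1, and the y axis is the percentage of that group's cells; each line is 1 group. The line with PD173074 is the flattest, with 10.4% of its cells under 3%.

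The share also varied with depth, and not in the same way in each group. In cardiomyocyte-like cells with 2000 to 4000 UMIs the median share was 12.5% in the 2D culture, 7.28% with PD173074 and 9.17% without. In cells with 4000 to 8000 UMIs it was 11.3, 13.4 and 9.10%. Cardioids with PD173074 thus lay below those without in the first range and above them in the second. Over the cells with 4000 to 8000 UMIs alone, the pooled shares were 11.1% (2170 cells), 12.7% (1200 cells) and 9.23% (1621 cells).

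Cardiomyocyte-like clusters with at least 50 cells of both cardioid groups were then compared one by one. All 4 of them had a higher share with PD173074. In cluster 3, with NPPA and NR2F1 among its 10 leading genes, it was 11.7% with and 10.9% without. In cluster 5, led by TFPI2 and GFRA1, it was 11.6 and 9.98%, and in cluster 8, led by FGF12, it was 10.4 and 9.98%. In cluster 13, led by the mitotic genes TOP2A and CENPF, it was 10.5 and 7.85%, the widest gap of the 4. Weighting these 4 clusters equally gave a log2 ratio of 0.19, where the pool gave 0.33. Cluster 4, with TBX3 and RSPO3 among its 10 leading genes, held 1363 cells without PD173074 at a share of 7.89%.

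Cardioids without PD173074 lay below the 2D culture in 5 of the 6 clusters that they shared. The shares were 12.6 against 13.2% in cluster 0, which had CKM and ENO3 among its 10 leading genes. They were 9.45 against 10.3% in cluster 2 and 7.89 against 8.22% in cluster 4. In the DNA replication cluster 11 they were 8.98 against 9.98%, and in cluster 13 they were 7.85 against 9.28%. Cluster 5 went the other way, with 9.98% without PD173074 and 9.15% in the 71 cells of the 2D culture. Weighting the 6 clusters equally brought the log2 ratio from -0.33 to -0.08. Cardioids with PD173074 and the 2D culture shared 2 clusters of this size, and both had a higher share with PD173074. The shares were 11.6 against 9.15% in cluster 5 and 10.5 against 9.28% in cluster 13, although the pooled log2 ratio was 0.01.

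The members were then compared gene by gene in cardiomyocyte-like cells, as CPM (UMI counts scaled to a common total per sample). With no test possible, a gene counted as beyond 1.5-fold when its whole counting interval lay past 1.5-fold and its level reached 10 CPM in at least 1 of the groups. In every comparison 82 members reached 10 CPM, and RPL3L and RPL10L did not. With against without PD173074, 15 of the 82 members were higher beyond 1.5-fold, against 5.27% of the 10574 genes compared, and 0 were lower, against 4.86%. The median log2 ratio of the members was 0.35, where that of all genes was -0.07. The count was 6 when clusters were drawn at resolution 0.3, and 23 over cells of 4000 to 8000 UMIs. The share of all genes in these settings is not reported here, so these 2 counts have no background.

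RPL39, a small protein of the peptide exit tunnel, had the highest ratio between the cardioid groups. It stood at 1014, 1013 and 1006 CPM in the runs with PD173074 and at 592, 622, 571, 617 and 608 CPM in those without, and at 994, 980 and 977 CPM in the 2D culture. The log2 ratio with against without was 0.74 (0.70 to 0.77). RPS15A, of the small subunit body, had 1741, 1741 and 1727 CPM with PD173074 and 1030, 1024, 1133, 1029 and 1035 CPM without, a log2 ratio of 0.74. In both genes the runs of the 2 groups lay apart, and the 2D culture was near the cardioids with PD173074 for RPL39 and between the groups for RPS15A (1478, 1481 and 1495 CPM). The other 4 of the top 6 were RPL32 (0.72), RPS12 (0.67), RPS27 (0.66) and RPS15 (0.66), followed by RPL34, RPS21, RPS18, RPS19, RPL37A, RPS28, RPL41, RPL28 and RPL35A.

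At the other end stood 4 of the paralogs. RPL39L had 37.2, 36.7 and 38.8 CPM with PD173074 and 60.1, 60.3, 51.5, 58.3 and 60.4 CPM without, a log2 ratio of -0.65 (-0.79 to -0.51), whose interval reached inside 1.5-fold. RPL7L1, a nucleolar relative of RPL7, had a log2 ratio of -0.34, RPL26L1 -0.32 and RPS27L -0.21. RPS2, of the small subunit, followed at -0.08 and RPL15, of the large subunit, at 0.05. RPL39 and RPL39L thus took the first and the last place of the same order.

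Without PD173074 against the 2D culture, 9 of the 82 members were lower beyond 1.5-fold, against 1.09% of the 10431 genes compared, and 0 were higher, against 3.07%. The median log2 ratio was -0.30 for the members and 0.09 for all genes. Among the 9 were RPS28, RPL39, RPL36, RPL32, RPS18, RPL8, RPS19 and RPS12. RPS28, of the small subunit head, was at 1051, 1064 and 1068 CPM in the 2D culture and at 644, 660, 444, 654 and 650 CPM without PD173074, a log2 ratio of -0.76 (-0.79 to -0.72). Run 3 was the lowest run for RPS28, although over all members it was the highest. RPL39 had a log2 ratio of -0.70, RPL36 of -0.68, RPL32 of -0.67, RPS18 of -0.66 and RPL8 of -0.63. The count was 1 with the set-aside clusters or at clustering resolution 0.3, and 3 over cells of 4000 to 8000 UMIs. It was 18 under scaling by the median ratio of all genes, which also shifts every other gene. Shares of all genes in these settings are not reported here.

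RPS20 and RPL13A had the highest ratios of both cardioid groups to the 2D culture. RPS20, of the small subunit head, had 184, 183 and 178 CPM in the 2D culture, 336, 335 and 334 CPM with PD173074 and 263, 276, 280, 269 and 272 CPM without. RPL13A, a large subunit protein that can leave the ribosome during interferon signalling, had 421, 417 and 423 CPM, 764, 755 and 760 CPM, and 599, 601, 693, 594 and 590 CPM. The runs of the 3 groups, repeats of the same droplets within a group, did not overlap for either gene. Against the 2D culture the log2 ratios without PD173074 were 0.58 (0.52 to 0.64) for RPS20 and 0.53 (0.49 to 0.57) for RPL13A. RPL7L1 (0.36) and RPL23 (0.24) came next.

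The level of RPL13A differed by cluster as well as by group. In cluster 5 it was 342 CPM in the 2D culture, 753 CPM with PD173074 and 742 CPM without, and in cluster 13 it was 355, 699 and 548 CPM. In clusters 0 and 2, which held mainly cells of the 2D culture, the 2D culture had 389 and 472 CPM and the cardioids without PD173074 had 378 and 438 CPM, so there the cardioids were not higher. RPS20 had 204, 300 and 301 CPM in cluster 5 for the same 3 groups, and 127 and 112 CPM in cluster 0 for the 2D culture and the cardioids without PD173074.

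With PD173074 against the 2D culture, 2 of the 82 members were higher beyond 1.5-fold, against 9.3% of the 10649 genes compared, and 1 was lower, against 7.17%. Both shares of members lay under those of all genes. The 2 were RPS20 (log2 0.88) and RPL13A (0.85), with RPL21 (0.58) and RPL31 (0.52) next in order. The 1 was RPL39L, at 69.0, 68.4 and 69.4 CPM in the 2D culture and 37.2, 36.7 and 38.8 CPM with PD173074, a log2 ratio of -0.88 (-1.0 to -0.75). RPL8 (-0.53), RPL26L1 (-0.50), RPS27L (-0.43), RPS4X (-0.24) and RPL29 (-0.23) followed. The median over members was 0.04 and that over all genes 0.01. Over cells of 4000 to 8000 UMIs 0 members were higher, and the share of all genes there is not reported. The 3 comparisons share samples, so the places of a gene in them are not independent.

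**Figure D3:**
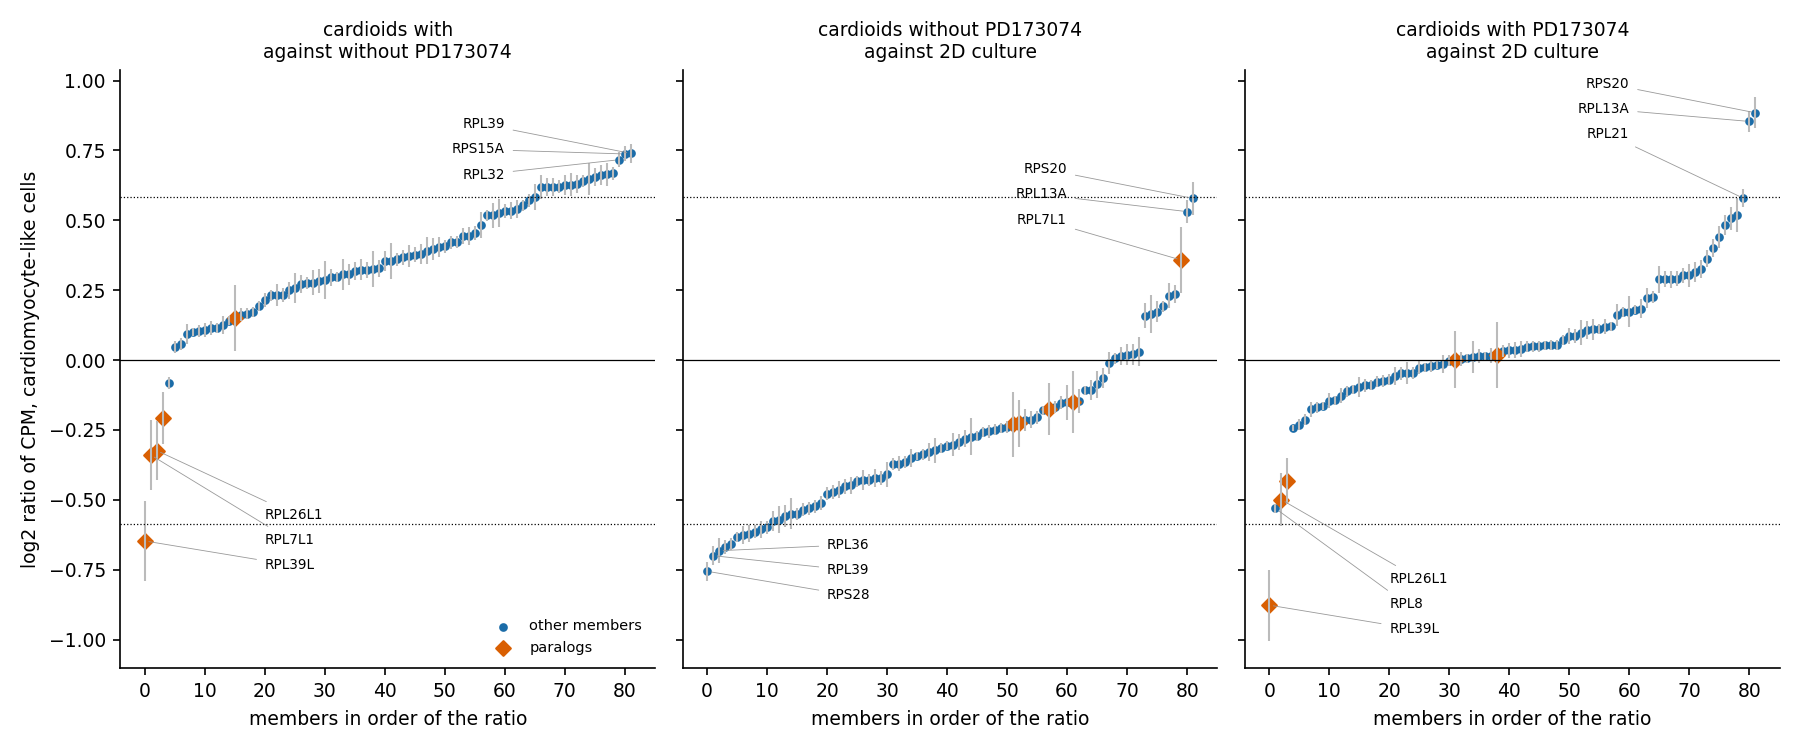
The 82 members at 10 CPM or more, in order of their log2 ratio in cardiomyocyte-like cells (y), for each of 3 comparisons. Points are genes, grey lines exact 95% counting intervals, diamonds the paralogs RPL7L1, RPL22L1, RPL26L1, RPL39L and RPS27L, and dotted lines mark 1.5-fold. With against without PD173074, the 4 lowest points are diamonds.

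Over all cells, with the other cell classes included, the count of members higher beyond 1.5-fold with against without PD173074 was 30 of 82, against 6.33% of genes. RPL28 led with a log2 ratio of 0.93. Over all cells 1 member, RPS28, was lower without PD173074 than in the 2D culture, against 1.3% of genes. With PD173074 against the 2D culture 4 members, RPL13A, RPS20, RPL31 and RPL21, were higher, against 9.7% of genes.

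Members with well-known roles followed the family to different degrees. Of the stalk, which recruits elongation factors, RPLP1 had a log2 ratio of 0.52 and RPLP2 of 0.48 with against without PD173074, while RPLP0, the base of the stalk, had 0.09. RPLP0 was at 707, 711 and 720 CPM in the 2D culture, 704, 717 and 697 CPM with PD173074 and 669, 661, 629, 664 and 670 CPM without. RPS19, RPL5 and RPL11 are mutated in Diamond-Blackfan anaemia, and RPL5 and RPL11 bind MDM2 when ribosome assembly fails. RPS19 had 1148, 1170 and 1153 CPM, 1157, 1158 and 1166 CPM, and 743, 734, 877, 731 and 726 CPM in the same order of groups, so the runs of the 2D culture and of the cardioids with PD173074 overlapped. RPL11 had a log2 ratio of 0.36 and RPL5 of 0.19 with against without PD173074.

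RPS6, the substrate of the S6 kinases, had a log2 ratio of 0.16 with against without PD173074, and RPSA, which is also a laminin receptor, of 0.27. RPS25 had 0.54, RPL41, the shortest ribosomal protein, 0.62, RPS29 0.39, RPL38 0.33, RPS26 0.29 and RPL10A 0.25. RPS4X, the copy on the X chromosome, had 5919, 5939 and 5913 CPM in the 2D culture, 4988, 5020 and 5007 CPM with PD173074 and 4669, 4671, 4682, 4672 and 4656 CPM without. Its runs lay apart in all 3 groups and did not single out run 3.

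Over all cells the groups had similar members at both ends of the order of levels. A 3′ library gives 1 UMI per captured molecule, so CPM were not divided by gene length, and capture may still differ between genes. In the 2D culture the 5 highest were RPS4X (5966 CPM), RPL10 (3780), RPL7A (3402), RPLP1 (3266) and RPL5 (3122). With PD173074 they were RPS4X (6056), RPL10 (4255), RPLP1 (3902), RPL7A (3721) and RPS18 (3524), and without it RPS4X (5026), RPL10 (3204), RPL7A (2969), RPL3 (2945) and RPL5 (2920). The 5 lowest were paralogs in every group: RPL10L, RPL3L, RPL7L1, RPL39L and RPL22L1 in the 2D culture and without PD173074, and RPL26L1 in place of RPL22L1 with it.

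Every named class outside heart muscle with at least 50 cells gave the members a larger share than the cardiomyocyte-like cells of the same sample. The endothelial-like class had 16 cells with and 8 without PD173074 and was left out. Its shares were lower than those of cardiomyocyte-like cells, 9.30 against 11.3% with PD173074 and 6.37 against 8.94% without. Cartilage-like cells (led by MATN4 and COL9A2) gave the members 17.6% in the 2D culture (238 cells). They gave 18.0% with PD173074 (504 cells) and 15.5% without (140 cells). Fibroblast or stromal-like cells (COL1A1, COL1A2) gave 15.3% in the 2D culture (703 cells) and 13.8% without PD173074 (66 cells). Epithelial-like cells (GABRP, VTCN1) gave 18.6% with PD173074 (533 cells) and 16.5% without (87 cells). Endoderm-like cells (AFP, TTR) gave 25.5% with PD173074 (55 cells) and 12.3% without (74 cells). These endoderm-like cells differed in other measures too: MALAT1 took 1.01% of their UMIs with PD173074 and 2.70% without, and the median cell had 1.92% mitochondrial UMIs with PD173074 and 0.00857% without. The part of these measures in the gap was not tested.

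Most members had higher levels in the other classes with at least 50 cells than in heart muscle. In cartilage-like against cardiomyocyte-like cells, 37 of 82 members were higher beyond 1.5-fold in the 2D culture, against 10.1% of genes, 41 with PD173074, against 13.4%, and 47 without, against 10.8%. In fibroblast or stromal-like cells 19 were higher in the 2D culture, against 12.1%, and 29 without PD173074, against 10.8%. In epithelial-like cells 47 were higher with PD173074, against 15.8%, and 48 without, against 11.8%. In endoderm-like cells 68 were higher with PD173074, against 14%, and 21 without, against 14.5%. In epithelial-like cells 1 member was lower beyond 1.5-fold, RPL39L in both cardioid groups, where 28.2% of genes with and 15% of genes without PD173074 were lower. The medians over all genes lay between -0.45 and 0.08 in these comparisons, and those over the members between 0.39 and 1.09.

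RPS12, RPL12 and RPL22L1 were each among the 3 highest members in 5 of the 9 comparisons of a class with heart muscle. RPS12, of the small subunit head, was at 2143 CPM in cardiomyocyte-like and 4524 CPM in cartilage-like cells of the 2D culture, at 2223 and 5160 CPM with PD173074 and at 1400 and 3642 CPM without. RPL12, beside the stalk, was at 973 CPM in cardiomyocyte-like cells with PD173074, 2578 CPM in epithelial-like cells (log2 1.41) and 4318 CPM in endoderm-like cells (2.15). Without PD173074 the epithelial-like ratio of RPL12 was 1.59. In stromal-like cells RPS19 was among the top 3 without PD173074 (1.42), and RPL28 was among the top 3 in epithelial-like cells of both groups (1.31 and 1.48). RPL29 joined RPL22L1 and RPL12 at the top in endoderm-like cells with PD173074 (1.93), and RPS18 joined RPL12 and RPL28 in epithelial-like cells without (1.34). Endoderm-like cells without PD173074 had another order, led by RPS27L (1.73), RPS19 (1.21) and RPL39 (1.11). At the low end RPL7L1 was among the 3 lowest in 8 of the 9, with log2 ratios from -0.59 to 0.31.

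Between the cardioid groups the count of members beyond 1.5-fold was also taken in the classes outside heart muscle. In cartilage-like cells 0 of 82 members were higher beyond 1.5-fold with PD173074, against 0.378% of genes, and the member with the highest log2 ratio was RPL37 (0.65, interval 0.53 to 0.78). In epithelial-like cells 1 was, RPL37A (0.87), against 0.143% of genes. In endoderm-like cells 65 were, against 4.96%, led by RPL22L1 (1.73), RPS15 (1.63) and RPL34 (1.62). The smaller numbers of cells widen the intervals in these classes, and the medians over members were 0.30 in cartilage-like, 0.25 in epithelial-like and 1.0 in endoderm-like cells, where the median over all genes was -0.54.

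**Figure D4:**
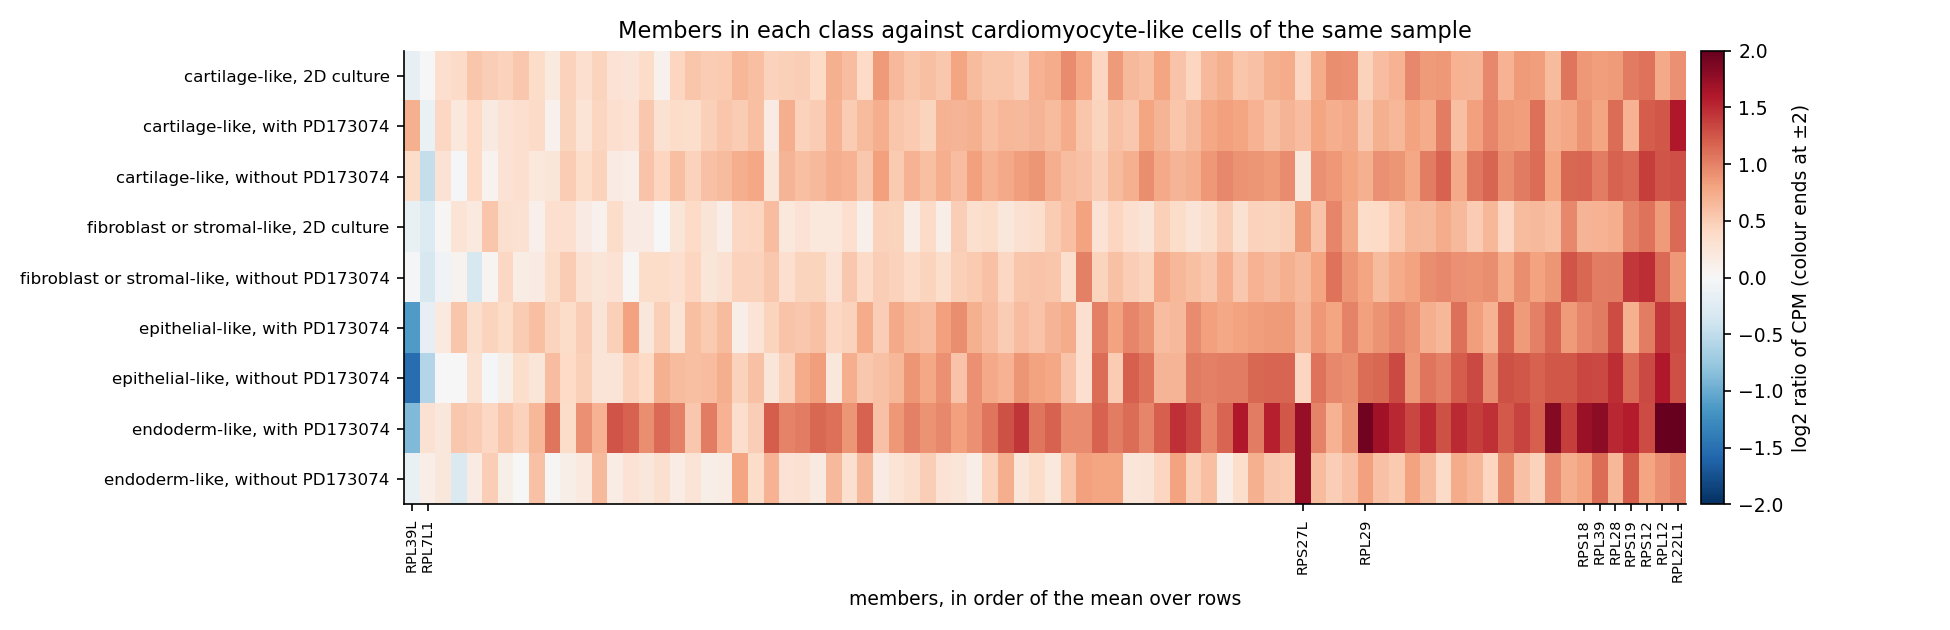
Log2 ratio of each of 82 members (columns, in order of their mean, with some genes labelled) in a class of cells against cardiomyocyte-like cells of the same sample (rows); red is higher in the class, blue lower, and the colour ends at 2 and -2. Most columns are red in all rows, RPL39L is blue in epithelial-like cells, and RPS27L is dark red in both endoderm-like rows (1.74 with and 1.73 without PD173074).

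The share of a paralog in its pair does not depend on how the library is scaled. RPL22L1, a paralog of RPL22 that binds RNA and is used during development, made up 11.0% of the pair's UMIs in cardiomyocyte-like cells of the 2D culture (10.6 to 11.5), 9.87% with PD173074 (9.38 to 10.4) and 11.5% without (10.8 to 12.2). In every other named class with at least 50 cells its share was larger. It was 13.4, 19.7 and 17.3% in cartilage-like cells of the 2D culture, with and without PD173074, and 26% (23.9 to 28.3) in endoderm-like cells with PD173074, where RPL22L1 stood at 433 CPM against 72.1 CPM in cardiomyocyte-like cells. In endoderm-like cells without PD173074 the share was 15.6% (12.8 to 18.8), at 130 CPM. When cells were thinned to 2000 UMIs, RPL22L1 was seen with PD173074 in 13.8% of heart muscle cells and in 40.4% of endoderm-like cells (27.0 to 54.9), and without PD173074 in 20.8% of endoderm-like cells (12.2 to 32.0). Unthinned, with PD173074 and with medians of 6332 and 16778 UMIs among the cells deep enough to thin, the shares were 34.7 and 87.3%; 247 of 2886 and 3 of 55 cells were too shallow.

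RPL39L made up 6.55% of the pair with RPL39 in cardiomyocyte-like cells of the 2D culture (6.25 to 6.86), 3.58% with PD173074 (3.33 to 3.85) and 8.85% without (8.31 to 9.41). Single runs stayed between 6.49 and 6.63%, between 3.50 and 3.71% and between 8.28 and 9.21%, without overlap. In epithelial-like cells it was 0.823% with PD173074 and 1.33% without, and in endoderm-like cells it was 0.577% with PD173074 (0.348 to 0.899) and 3.88% without (2.75 to 5.31). In cartilage-like cells it was 3.40% in the 2D culture, 3.39% with PD173074, inside the heart muscle interval there, and 5.76% without. Thinned to 2000 UMIs, 12% of cardiomyocyte-like cells of the 2D culture held a UMI of RPL39L, 7.05% with PD173074 and 10.7% without, and 2.09% of epithelial-like cells with PD173074.

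Among heart muscle clusters RPL39L was highest in the cycling ones in every sample. It stood at 136 CPM in the DNA replication cluster 11 and 169 CPM in the mitotic cluster 13 of the 2D culture, at 164 and 192 CPM without PD173074 and at 120 CPM in cluster 13 with it. The other cardiomyocyte-like clusters had 23.5 to 75.4 CPM. The level of RPL39L in cluster 13 was thus 120 CPM with PD173074, below the 169 and 192 CPM of the other groups, as in the pool. In cluster 5 the levels were close, with 33.6 CPM in the 2D culture, 31.5 CPM with PD173074 and 31.3 CPM without. In cluster 3 RPL39L had 32.2 CPM with and 36.7 CPM without PD173074, and in cluster 8 it had 23.47 and 29.97 CPM. The part of the different clusters in the pooled differences of RPL39L was not tested. Cluster 11 had fewer than 50 cells with PD173074. Over 32 sets of cells (a cluster in a sample, with at least 50 cells), the Pearson correlation of RPL39L with the sum of the other members was -0.35.

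RPS27L made up 16.0% of the pair with RPS27 in cardiomyocyte-like cells of the 2D culture, 11.6% with PD173074 and 19.3% without. Its share was 29.6% (26.6 to 32.7) in endoderm-like cells without PD173074 and 15.7% (14.1 to 17.4) in those with it, although its level was similar there, 372 and 323 CPM, while RPS27 differed. RPL26L1 made up 6.55, 4.81 and 7.92% of its pair and RPL7L1 8.65, 7.59 and 10.9% in cardiomyocyte-like cells of the 3 groups. In the pooled runs all 5 of these paralogs had their lowest share with PD173074 in cardiomyocyte-like cells and their highest without it. The RPL22L1 intervals of the 2D culture and without PD173074 overlapped. In run 3 without PD173074 RPS27L made up 14.4%, below the 15.6 to 16.3% of the 2D runs. RPL26L1 made up 6.52% there, inside the 6.49 to 6.64% of the 2D runs. Levels had another order: only RPL7L1 was highest without PD173074, and RPL22L1 was lowest there, at 65.0 CPM. RPL36AL, the copy of RPL36A outside the rule, made up 40.8, 41.9 and 47.2% of that pair.

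RPL3L, the paralog that replaces RPL3 in mature striated muscle, was close to the limit of detection. It gave 1 UMI in the 3 runs of the 2D culture, 0 with PD173074 and 1 in the 5 runs without, where RPL3 gave 36674 to 138028 UMIs per run. Thinned to 2000 UMIs, 0 of 5059 cardiomyocyte-like cells of the 2D culture held a UMI of RPL3L, so its share may reach 0.0593%, as did 0 of 2639 with PD173074, where it may reach 0.114%, and 1 of 2687 without. RPL10L, a testis paralog of RPL10, gave 0 UMIs in all 11 runs.

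**Figure D5:**
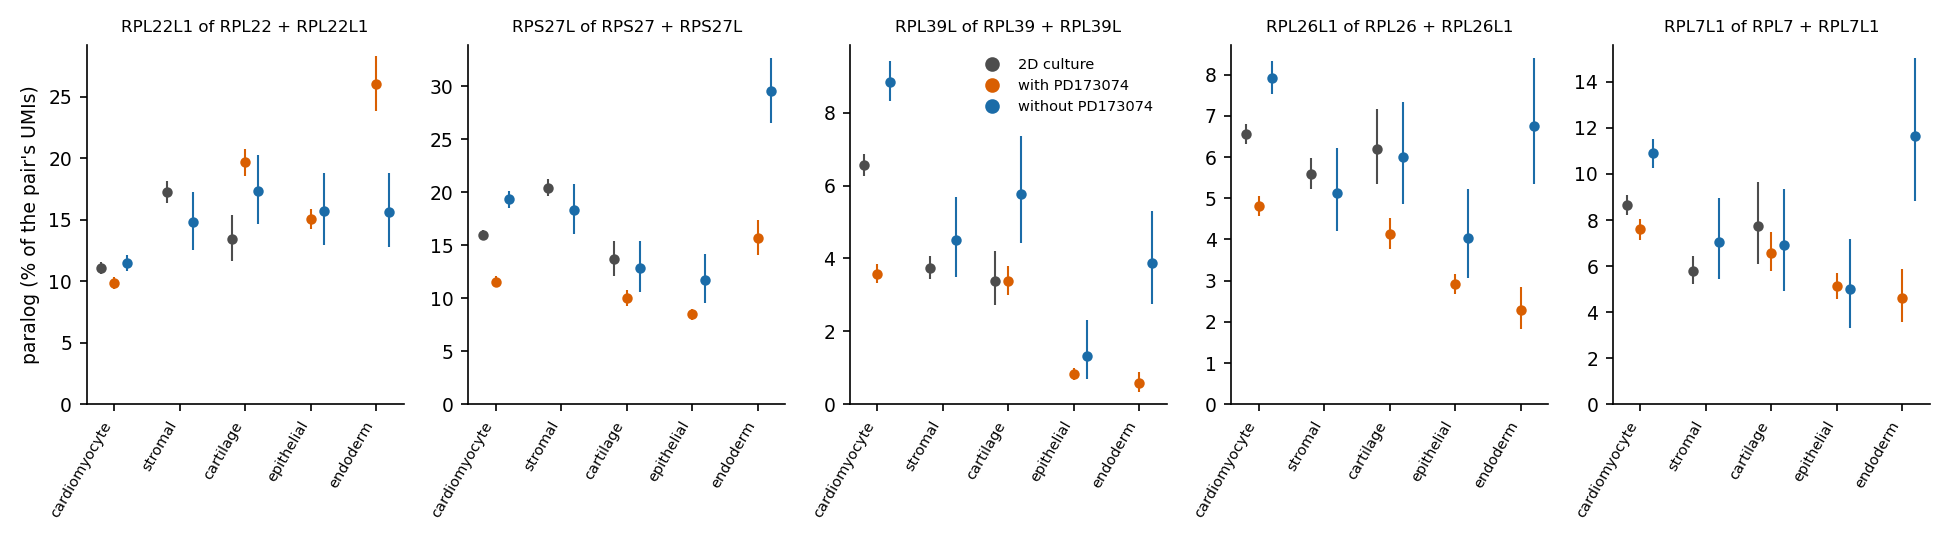
Share of each paralog in the UMIs of its pair (y, %) by class of cells (x) and group (colour); points are the pooled runs and lines exact 95% counting intervals, with a y axis of its own in each panel. RPL22L1 is lowest in cardiomyocytes, where it lies between 9.87 and 11.5%, while RPL39L is lowest in epithelial and endoderm-like cells with PD173074.

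The levels of the members were also followed over the 32 sets of cells. The median Pearson correlation of a member with the sum of the others was 0.93 over the 82 members measured, with 65 above 0.80; the sets share libraries and the total of each set, so this is a description. The values for RPL7L1 (-0.25), RPL26L1 (0.25), RPS20 (0.33) and RPL23 (0.48) were, with RPL39L, the 5 under 0.5. RPL13A had 0.57 and RPS27L 0.61, while RPL22L1 had 0.90. RPL12, with 0.97, ranged from 662 CPM in cluster 4 without PD173074 to 4318 CPM in endoderm-like cells with PD173074.

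The ranges of members with and without the TOP form at an annotated start overlapped. A member without the form there may still have a tract that begins at a nearby base. With against without PD173074 the median log2 ratio was 0.41 for the 47 members with a TOP start (0.09 to 0.74), 0.25 for 19 with another listed start (-0.34 to 0.72) and 0.29 for 16 with no listed promoter. RPS4X, RPL15 and 3 of the paralogs are in the second group, and so are RPL32, RPS28 and RPS15, which were among the 15 higher genes. The members lie on 21 chromosomes, 12 of them on chromosome 19 and 4 on X (RPS4X, RPL36A, RPL39 and RPL10). GENCODE release 29 lists 1145 pseudogenes named after 77 of the members, up to 91 for RPL23A, and reads that match a gene and a copy equally can be lost. Spearman's correlation between this number and the log2 ratio across the 82 members was -0.04, 0.16 and 0.15 in the 3 comparisons, and genes are not independent replicates.

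Lists of other genes of the translation apparatus were set beside the members. With against without PD173074 in cardiomyocyte-like cells, 0 of 7 elongation factors were beyond 1.5-fold (median log2 0.16), and EEF1A1 had 0.21, EEF2 0.16 and EEF1A2, the muscle form, -0.61. Of 27 initiation factors at 10 CPM 0 were higher and 1 lower, EIF5 (-0.77), with a median of -0.15. Other TOP mRNAs, such as TPT1, PABPC1 and the snoRNA hosts SNHG6 and ZFAS1, had a median of -0.04 over 15 genes with 0 beyond 1.5-fold, with TPT1 at -0.10 and SNHG6 at 0.32. Of 43 ribosome biogenesis genes 0 were beyond it (median -0.08), with NCL, a nucleolar protein, at -0.53. FAU, which encodes a ribosomal protein fused to a ubiquitin-like protein, had 0.32, near the median of the members.

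Without PD173074 against the 2D culture, where the members had a median of -0.30, the median of 41 ribosome biogenesis genes was 0.22, with NOP58 at 0.57, UBTF at 0.57 and NCL at 0.50, and that of 27 initiation factors was 0.17, with 0 genes of either list beyond 1.5-fold in either direction. The 7 elongation factors had a median of -0.13, and the other TOP mRNAs of 0.05, led by VIM at 0.49. Among the genes that control TOP translation and rRNA synthesis, DDIT4, an inhibitor of mTOR, was at 36.9 CPM in the 2D culture, 20.8 CPM with PD173074 and 45.6 CPM without, a log2 ratio of -1.13 between the cardioid groups. It was the only 1 of 17 genes of that list beyond 1.5-fold in that comparison, where 4.86% of all genes were lower. The 18 cytosolic tRNA synthetases at 10 CPM had a median of -0.08 and 0 beyond 1.5-fold between the cardioid groups, and 8 nascent chain and ribosome-bound factors such as SRP9 (-0.37) and SRP14 (-0.24) had -0.15.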

How the data were processed

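The submitters' processing notes name Cell Ranger 7.0.0 and hg38; the authors deposited UMI counts per gene and cell, used here as deposited. The annotation release, and which library used chemistry v2 or v3, are not given in the sources used here. Barcodes present in all runs of their group were kept when they had, as a mean over runs, at least 1000 UMIs, 500 genes and at most 30% mitochondrial UMIs. Cells were clustered with scanpy 1.11.5 (Leiden, resolution 0.6) on summed runs without ribosomal protein or mitochondrial genes; no doublet caller was run. A cluster was cardiomyocyte-like at a mean log2(CPM + 1) of 8 over the fixed markers, and other classes needed 3 markers among their 100 leading genes. Clusters whose top 10 genes held more markers of some other class were set aside. Counts were summed per class, averaged over runs and compared as CPM with exact 95% conditional intervals (scipy 1.17.1), for which the interval script was tested on simulated data. For detection, cells of run 1 were thinned to 2000 UMIs. Genes were named by rank (6 highest and 6 lowest per comparison, 3 and 3 per class, 5 and 5 by level, both genes of each pair, up to 4 per list) plus a fixed list; a few others (RPL23A, RPL37, members just past 1.5-fold) were named after their values were seen. Members, lists and rules were chosen with earlier results of these data known. Symbols from GENCODE release 29 and RefSeq were matched by gene identifier or symbol. Results for some members are not reported here.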

Additional observations from a re-analysis of the deposited data

Results flagged for a closer look

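Run 3 of the cardioids without PD173074 stood apart from the other 4 runs of the same droplets in 4 of 7 quantities checked; chance alone marks about 1 in 20 such groups, and the quantities are not independent. In cardiomyocyte-like cells its member share was 9.49% of UMIs, where the others lay between 8.86 and 8.89%, and small subunit members supplied 41.3% of member UMIs, where the others lay between 41.7 and 41.8%. RPS27L made up 14.4% of its pair, against 19.3 to 20.5%, and RPL26L1 6.52%, against 7.96 to 8.26%. Run 3 was the shallowest run of the group, with a median of 2891 UMIs per barcode against 5219 to 5508. Its part in these values was not tested. Relative to the other runs its members had a median log2 shift of 0.12, from -0.55 to 0.41, with 65 of 82 above 0, where all genes had a median of -0.04 and 4064 of 10158 above 0. The mitochondrial share in run 3 was 3.92%, against 3.45 to 3.46%. Without run 3 the log2 ratio of the member share with against without PD173074 was 0.35 and that without PD173074 against the 2D culture was -0.34.

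The member share was 9.98% without PD173074 and 9.15% in the 2D culture in cluster 5, while the other 5 shared clusters of cardiomyocyte-like cells had the opposite sign. The difference between clusters was not tested, and the 2D culture had 71 cells in cluster 5.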

How the results depend on the processing

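No paired analysis was possible because the libraries of a group are runs of the same droplets and no result comes from a test. Without any 1 run the log2 ratio of the member share was 0.33 to 0.35 with against without PD173074, -0.34 to -0.32 without against 2D culture and 0.01 with against 2D culture (0.0057 to 0.0083). The corresponding counts of higher and lower members were 11 to 15 and 0, 0 and 6 to 11, and 2 and 1.

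Outside mitochondrially encoded UMIs the 3 log2 ratios of the share were 0.35, -0.35 and -0.0068, so the last one changed sign; the cause was not tested. At clustering resolution 0.3 they were 0.30, -0.25 and 0.051, and over cells of 4000 to 8000 UMIs 0.47, -0.27 and 0.19. With shared clusters weighted equally they were 0.19, -0.084 and 0.26, and with the set-aside clusters, an alternative chosen after seeing the data, 0.33, -0.25 and 0.077. The ratio to the 2D culture was -0.25 without and 0.089 with PD173074 when no cell was filtered, -0.32 and 0.013 at resolution 1.0, and with PD173074 0.0045 when ribosomal protein genes outside the symbol rule were added.

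The counts below describe the members only. The share of all genes is given beside them for all cells and is not reported here for the other settings. A lower fold limit, in place of 1.5-fold, gave more members by construction. Between the cardioid groups 40 were higher and 1 lower. Without PD173074 against the 2D culture the counts were 2 and 35, and with it 9 and 4. A limit of 2-fold gave 0 in all 3. Between the cardioid groups 30 members were higher over all cells, against 6.33% of genes, 23 over cells of 4000 to 8000 UMIs and 6 at resolution 0.3. Without PD173074 against the 2D culture the lower members numbered 14 per UMI outside members and mitochondrial genes and 18 by the median of ratios. They numbered 3 over cells of 4000 to 8000 UMIs, and 1 at resolution 0.3 or with the set-aside clusters. Over all cells 1 was lower, against 1.3% of genes. With PD173074 against the 2D culture 4 were higher over all cells, against 9.7% of genes, and 0 over cells of 4000 to 8000 UMIs. Over all alternatives to the shares and counts of the comparisons, 67 values stayed within the limits set for no change, 40 moved and 1 changed sign. Of the paralog shares 17 stayed and 19 moved. The limit was the counting interval of the main value for a share, and an equal count or one within 1.5-fold for a count. Counts of 0 that stayed at 0 are among the 67, so this tally does not measure how stable the results are. Of the classes compared, endoderm-like cells, with 55 and 74 cells, have the fewest cells in the cardioids with PD173074.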

Other observations

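The mitochondrial ribosome, which is built from a separate set of nuclear genes, had a median log2 ratio of -0.16 over 76 genes at 10 CPM with against without PD173074 in cardiomyocyte-like cells, where 0 were higher and 1 lower beyond 1.5-fold, against 5.27% and 4.86% of all genes. That gene was MRPS6, at 630 CPM in the 2D culture, 244 CPM with PD173074 and 454 CPM without. With PD173074 against the 2D culture 3 of 77 were lower, MRPS6 (-1.37), MRPL34 (-0.80) and MRPL41 (-0.67), against 7.17% of all genes, and the median was -0.26. Of the 6 p53 targets tied to ribosomal stress at 10 CPM, 0 were higher and 2 lower in the same comparison, against 7.17% of all genes lower. Their median was -0.35. The 2 were BBC3, near the floor (-1.70, 3.36 against 10.9 CPM), and BAX (-0.81, 54.2 against 94.8 CPM). MDM2, the ligase that holds p53 down, had a log2 ratio of 0.36. These are values of 1 sample per group with no test.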
